A study of Mus musculus with 12 samples.

Results

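The genes described here copy DNA in S phase: 46 mouse genes for origin licensing, helicase firing, DNA polymerases, the sliding clamp, nucleotide supply, chromatin copying, E2F and cyclin E control, and repair at replication forks. They were chosen by symbol, and each was represented by the probe set of its own with the highest mean over all 12 arrays. Of the 46, 45 were measured among 18193 genes; Chaf1a has no value here. The samples were mammary glands of 12 virgin, ovariectomized C57BL/6 mice, 1 Affymetrix array per mouse and 3 mice per group. The 4 groups were Ccnd1+/+ mice (called wildtype) on placebo or on estradiol and Ccnd1-/- mice (called knockout) on placebo or on estradiol. Treatment lasted 7 days, and estradiol came from pellets of 0.72 mg made to release it over 60 days. The knockout is in the whole animal, ovaries were removed in all groups, and the whole gland was measured. Every value thus mixes epithelium, fat, stroma and blood-borne cells, and skeletal muscle marker genes also varied between the arrays. The labels do not say whether lymph nodes were in the tissue.

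Before a cell can copy its DNA, the origin recognition complex with Cdc6 and Cdt1 loads the Mcm helicase onto chromatin in G1, and kinases then fire the loaded origins, with Mcm10, Cdc45 and the GINS complex completing the helicase. Cyclin D1 with its kinase partners phosphorylates the retinoblastoma protein, which frees E2F factors, and E2F factors transcribe most of the genes in this group. In the adult mammary gland, ovarian hormones drive epithelial cells into the cycle. Activated lymphocytes also divide, and they carry the same transcripts.

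Knockout arrays were lower for Ccnd1 itself, at 7.24 to 7.68 on the log2 scale against 8.50 to 10.82 in wildtype, a difference of -1.93 (exact two-sided permutation p = 0.00216 over 924 arrangements, their smallest possible p). The median log2 value of an array was 5.73 to 5.797, correlations between arrays ran from 0.937 to 0.993 over genes, and 0 pairs of arrays were identical. Defining markers of glandular epithelium (Krt8, Krt18 and others, 10 of 10 measured) and of fat (4 of 5 measured) were present, and no measured marker of these lists lay under the lower quartile of every array. B cell and T cell markers (9 of 10 measured in each list) differed widely between mice of the same group. Only Mybl1 of all the cell type lists was under the lower quartile on every array.

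Promoter sequences are shown first because E2F and CCAAT words were not used in the choice by symbol. An E2F word was found in a minority of the members but in far fewer of all genes. CCAAT was found in a majority of the members and was common among all genes too. RefSeq promoters (build GRCm38.p6, 250 bases before to 50 after the start) were at hand for 38 of the 46 members. The words TTTGGCGC, TTTCCCGC, TTTGCCGC and TTTCGCGC, searched on both strands, stood in at least 1 window of 16 of the 38 members (42.1%) and of 704 of 27025 genes (2.60%). The word CCAAT, also searched on both strands, stood in 24 of the 38 (63.2%) and in 41.1% of all genes. The 16 with an E2F word were Mcm3, Mcm5, Mcm6, Mcm7, Cdc6, Cdt1, Orc1, Rfc3, Pola1, Pole2, Pold1, Lig1, Uhrf1, Dnmt1, E2f2 and Dtl. Rrm2, which carries the firmest result below, had a CCAAT 50 bases before its start and none of the 4 E2F words in its window. The 5 windows upstream of the start are given 5′ to 3′, with E2F words and CCAAT (or its reverse complement ATTGG) in capitals. They were chosen for Rrm2 and for 4 members whose E2F words lie before the start, and adjoining words overlap in Mcm5 and Mcm6. Uhrf1 has another promoter, not printed here (chr17:56303167-56303336, + strand), with CCAAT and no E2F word.
Rrm2 promoter: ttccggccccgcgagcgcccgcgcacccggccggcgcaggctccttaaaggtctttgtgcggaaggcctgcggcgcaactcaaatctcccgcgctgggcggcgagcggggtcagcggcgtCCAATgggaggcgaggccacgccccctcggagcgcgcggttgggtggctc
Mcm5 promoter: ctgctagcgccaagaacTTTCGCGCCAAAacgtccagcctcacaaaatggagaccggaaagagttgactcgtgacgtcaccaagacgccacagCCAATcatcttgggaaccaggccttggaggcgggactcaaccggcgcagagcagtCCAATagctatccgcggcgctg
Mcm6 promoter: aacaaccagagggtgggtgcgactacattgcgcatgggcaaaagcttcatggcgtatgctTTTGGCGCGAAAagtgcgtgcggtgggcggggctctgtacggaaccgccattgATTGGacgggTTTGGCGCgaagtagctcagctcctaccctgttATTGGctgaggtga
Uhrf1 promoter: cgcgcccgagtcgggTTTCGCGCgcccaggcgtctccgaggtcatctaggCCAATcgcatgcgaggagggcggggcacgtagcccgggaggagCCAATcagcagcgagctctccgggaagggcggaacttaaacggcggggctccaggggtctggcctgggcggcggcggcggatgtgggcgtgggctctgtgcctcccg
Dtl promoter: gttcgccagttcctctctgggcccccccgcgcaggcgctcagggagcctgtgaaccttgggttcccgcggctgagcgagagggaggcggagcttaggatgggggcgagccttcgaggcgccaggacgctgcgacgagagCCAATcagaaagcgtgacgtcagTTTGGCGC
The windows are, in GRCm38.p6, chr12:24708084-24708253 (+ strand) for Rrm2, chr8:75109339-75109508 (+ strand) for Mcm5, chr1:128359706-128359875 (- strand) for Mcm6, chr17:56304113-56304312 (+ strand) for Uhrf1 and chr1:191575545-191575714 (- strand) for Dtl. In Mcm5 the overlapping words begin 153 and 149 bases before the start, in Mcm6 they begin 110 and 106 bases before it with another word at 47, in Uhrf1 the word begins at 185, and in Dtl at 8. A word is a description of the letters, not a bound site.

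The replication genes varied widely between mice of the same group. The median member spanned 1.56 log2 units over the 12 arrays, against 0.80 for all genes, and its SD between mice of 1 group was 0.58 against 0.22. The median of the 45 members, each centred on its mean, was 0.34, 0.09 and -0.64 in the 3 wildtype placebo mice and -0.16, 0.30 and -0.14 in the 3 on estradiol. It was 0.57, -0.60 and 0.72 in the knockout mice on placebo and -0.47, 0.28 and -0.27 in those on estradiol. Each group thus held mice above and below the overall mean, and the groups overlapped. Knockout placebo mouse 3 was the highest of the 12 for 27 members, and wildtype placebo mouse 3 was the lowest for 20. Not all members followed this order: E2f1 and Ccne1 were highest in knockout placebo mouse 2, where the median of the members was -0.60. Because many members rose and fell together between mice, the counts of members above or below 0 given below are not counts of separate observations.

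**Figure D1:**
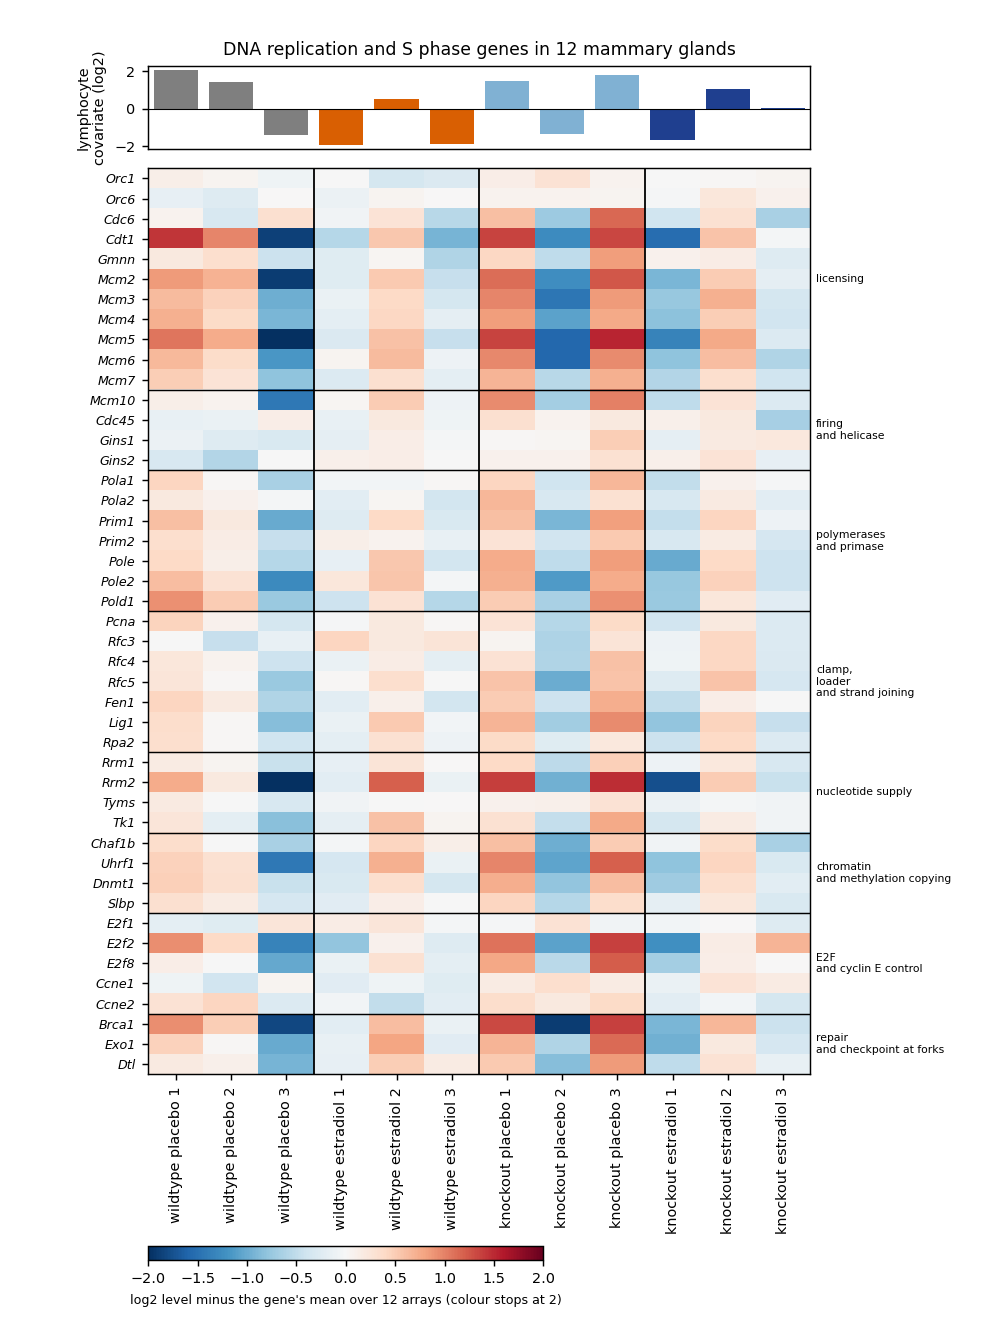
Log2 level of the 45 measured members (rows, by role) in each of the 12 arrays (columns, by group), each gene minus its mean over the arrays; bars above give the lymphocyte covariate of each array in log2 units. Wildtype placebo 3 and knockout placebo 2, with covariates of -1.43 and -1.34, are the bluest columns of their groups for most genes.

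Lymphocyte genes also differed widely within groups. The mean of Cd79a, a subunit of the B cell receptor, and Cd3e, a subunit of the T cell receptor complex, each centred on its mean, serves here as the lymphocyte covariate. It was 2.05, 1.42 and -1.43 in wildtype placebo mice, -1.93, 0.49 and -1.91 in wildtype estradiol mice, 1.46, -1.34 and 1.82 in knockout placebo mice and -1.70, 1.03 and 0.03 in knockout estradiol mice. In bulk tissue, fewer lymphocytes and less RNA per lymphocyte cannot be told apart. A gap between -1.34 and 0.03 parts lymphocyte-poor from lymphocyte-rich arrays, and the rich ones run from 0.03 to 2.05. No correlation is given, and the same gap limits the slopes and p-values below. The covariate was entered into the limma fit of 4 group means, with 1 slope per gene for all groups. Equal slopes across groups were assumed and not tested.

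With that fit, 34 of the 45 members had a slope called at an adjusted p under 0.05 (limma, Benjamini-Hochberg over all 18193 genes), and all 34 were higher where the covariate was higher. Of all genes 29.2% were called, 14.4% with a higher level. The median slope of the members was 0.29 log2 units per log2 unit of the covariate, against -0.03 for all genes. By role, the called slopes were 8 of 11 in licensing, 1 of 4 in firing, 7 of 7 polymerase and primase subunits, 6 of 7 in the clamp and strand joining, 3 of 4 in nucleotide supply, 4 of 4 in chromatin copying, 2 of 5 in E2F and cyclin E control and 3 of 3 in repair. Largest were Mcm5, a subunit of the Mcm helicase, at 0.82 ± 0.08 (SE, adjusted p = 5.93e-05), Cdt1, the licensing factor, at 0.82 ± 0.06 (adjusted p = 1.05e-05), and Rrm2, the small subunit of ribonucleotide reductase, at 0.75 ± 0.04 (adjusted p = 9.4e-07). The 11 not called were Orc1, Orc6, Cdc6, Cdc45, Gins1, Gins2, Rfc3, Tyms, E2f1, Ccne1 and Ccne2. Without the wildtype placebo mouse 3 and knockout placebo mouse 2, an omission added after seeing the data, 16 slopes were called.

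**Figure D2:**
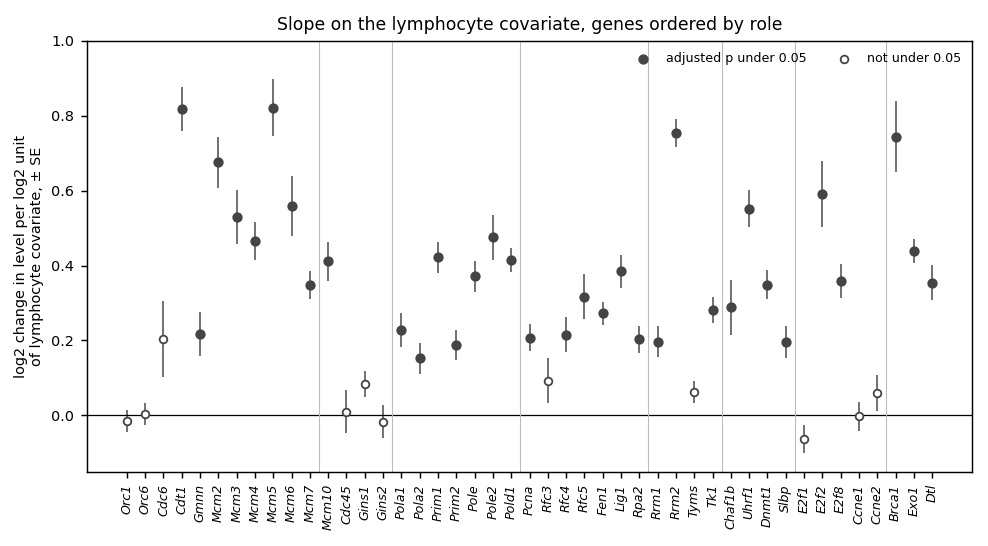
Slope of each member's log2 level on the lymphocyte covariate (log2 per log2, ± SE, limma fit of 12 arrays with 4 group means), genes ordered by role. Filled points, 34 of 45, passed an adjusted p of 0.05, and all of them lie above 0.

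The wildtype mice answer how the replication genes responded to the hormone where cyclin D1 is present. Without the covariate, 0 of the 45 members were called by limma, and 1.88% of all genes were. Of the members 1 (2.2%) had an unadjusted p under 0.05, against 13.5% of all genes. The members' median difference was 0.04, against 0.01 for all genes. The 3 estradiol mice lay all above the 3 placebo mice for 1 member, Rfc3 (11.9% of all genes did), and all below for 0 (5.11%). With the lymphocyte covariate, 12 members were called, all 12 higher on estradiol, where 3.48% of all genes were called and 3.05% were called higher. The median difference was then 0.59, against -7e-04 for all genes. Above 0 were 42 of 45 members and 9068 of all 18193 genes. In each of the 12 called members the wildtype placebo and estradiol mice overlapped as measured, so these calls rest on the covariate. They also rest on equal slopes in all groups, which were not tested. In Mcm5 the lymphocyte-poor wildtype mice stood at 7.37 on placebo and at 9.18 and 9.01 on estradiol. The rich ones stood at 10.55 and 10.21 on placebo and at 10.06 on estradiol. The covariate itself averaged 0.68 ± 1.85 (SD, n = 3) in wildtype placebo and -1.11 ± 1.39 in wildtype estradiol mice, and whether estradiol changes it was not tested here. Without wildtype placebo mouse 3, which is poor in lymphocyte genes and has the lowest Gapdh 3′ minus 5′ difference (2.10), 4 members were called (Pole, Rrm2, Tk1 and Exo1). The calls numbered 5 without placebo mouse 1, 6 without placebo mouse 2 and 6 without estradiol mouse 3.

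Nucleotide supply held the largest change. Rrm2 supplies deoxynucleotides only while DNA is being copied. Its log2 levels were 8.17, 7.62 and 5.42 in wildtype placebo, 7.21, 8.62 and 7.28 in wildtype estradiol, 8.81, 6.46 and 8.90 in knockout placebo and 5.66, 7.93 and 6.98 in knockout estradiol mice. The 2 wildtype estradiol mice poorest in lymphocyte genes stood at 7.21 and 7.28, where the wildtype placebo mouse poor in them stood at 5.42. With the covariate, wildtype estradiol mice differed by 1.99 ± 0.15 (SE, adjusted p = 0.000371), and it was called without any 1 array (1.92 to 2.25). Rrm2 is read by a probe set of the _x_at kind, which can pick up related sequences; its other probe sets gave 0.78 and 1.93. Tk1, thymidine kinase of the salvage route, had levels of 6.70, 6.28 and 5.63 in wildtype placebo, 6.29, 7.05 and 6.52 in wildtype estradiol, 6.78, 5.996 and 7.23 in knockout placebo and 6.12, 6.63 and 6.40 in knockout estradiol mice. Wildtype estradiol mouse 2 and knockout placebo mouse 3 were the highest. The wildtype difference was 0.92 ± 0.15 (SE, adjusted p = 0.00951), called without any 1 array. Tyms, thymidylate synthase, lay under the lower quartile of 11 arrays, with levels of 4.18, 3.98 and 3.68 in wildtype placebo, 3.93, 3.99 and 4.005 in wildtype estradiol, 4.08, 4.09 and 4.30 in knockout placebo and 3.88, 3.96 and 3.93 in knockout estradiol mice, and its difference of 0.14 ± 0.12 was not called. Rrm1, the large subunit of the reductase, stood at 0.47 ± 0.17 and was not called.

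In licensing, 2 of 11 members were called, both helicase subunits. Mcm2 had log2 levels of 9.71, 9.56 and 6.97 in wildtype placebo, 8.63, 9.39 and 8.40 in wildtype estradiol, 9.99, 7.61 and 10.10 in knockout placebo and 7.94, 9.37 and 8.69 in knockout estradiol mice, and Mcm5 had 10.55, 10.21 and 7.37 in wildtype placebo, 9.18, 10.06 and 9.01 in wildtype estradiol, 10.82 and 7.90 in knockout placebo mice 1 and 2 and 8.14, 10.23 and 9.20 in knockout estradiol mice. Mcm5 was highest of all 12 arrays in knockout placebo mouse 3. In both genes the wildtype estradiol mice sat within the span of the placebo mice, of which mouse 3 was low and the other 2 were high. Mcm2 differed by 1.28 ± 0.28 (SE, adjusted p = 0.039) and Mcm5 by 1.52 ± 0.32 (SE, adjusted p = 0.0311) with the covariate. Mcm2 stayed called in only 2 of the 12 fits that left out 1 array (0.87 to 1.72) and Mcm5 in 4 of 12 (1.20 to 2.11). The mean of all probe sets ended both calls. Mcm5, like Rrm2, is read by a probe set of the _x_at kind, and its other probe sets, dimmer, gave 1.21 and 0.29. Mcm7, at 11.66, 11.45 and 10.38 in wildtype placebo, 10.91, 11.49 and 10.98 in wildtype estradiol, 11.86, 10.62 and 11.88 in knockout placebo and 10.59, 11.51 and 10.78 in knockout estradiol mice, differed by 0.59 ± 0.15 (adjusted p = 0.07) and was not called. Mcm3, Mcm4 and Mcm6 stood at 0.88, 0.79 and 1.24, and Cdt1 at 0.97, none of them called. Orc1 was at -0.27 and Orc6 at 0.13, and Gmnn, the inhibitor of Cdt1, was at 0.09.

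Among the firing factors, Mcm10, which helps start the helicase, had levels of 6.76, 6.71 and 5.21 in wildtype placebo, 6.68, 7.15 and 6.54 in wildtype estradiol, 7.59, 5.97 and 7.65 in knockout placebo and 6.14, 6.91 and 6.37 in knockout estradiol mice. Wildtype placebo mouse 3 was the lowest and the lymphocyte-rich knockout placebo mice the highest. It differed by 1.31 ± 0.21 (SE, adjusted p = 0.0103), a call that ended without wildtype placebo mouse 3; its other probe sets, dimmer, gave 0.14 and -0.06. Gins2 of the GINS complex, at 7.23, 6.97 and 7.55 in wildtype placebo, 7.65, 7.69 and 7.55 in wildtype estradiol, 7.64, 7.65 and 7.86 in knockout placebo and 7.66, 7.83 and 7.39 in knockout estradiol mice, differed by 0.35 ± 0.18 and was not called, nor were Gins1 (0.35) and Cdc45 (0.06).

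Of the polymerases, 2 of 7 were called. Prim1, the catalytic primase subunit, which lays the RNA primers, had levels of 8.43, 8.04 and 6.83 in wildtype placebo, 7.59, 8.24 and 7.54 in wildtype estradiol, 8.44, 6.92 and 8.65 in knockout placebo and 7.37, 8.27 and 7.74 in knockout estradiol mice and differed by 0.78 ± 0.17 (SE, adjusted p = 0.034). Pole2, a subunit of leading-strand polymerase epsilon, had levels of 8.17, 7.85 and 6.29 in wildtype placebo, 7.79, 8.12 and 7.52 in wildtype estradiol, 8.26, 6.43 and 8.30 in knockout placebo and 6.81, 8.02 and 7.14 in knockout estradiol mice and differed by 1.23 ± 0.25 (SE, adjusted p = 0.0269). Pole, the catalytic subunit of the same enzyme, had levels of 7.42, 7.14 and 6.45 in wildtype placebo, 6.85, 7.55 and 6.65 in wildtype estradiol, 7.76, 6.51 and 7.86 in knockout placebo and 6.01, 7.42 and 6.61 in knockout estradiol mice. With 1 array left out, Prim1 stayed called in 4 of 12 fits and Pole2 in 7 of 12. The mean of all probe sets ended the call of Prim1. In all 3 genes the lymphocyte-poor placebo mice of both genotypes were near the bottom. The difference in Pole of 0.68 ± 0.17 missed the threshold (adjusted p = 0.056). Pola1, Pola2, Prim2 and Pold1 stood between 0.01 and 0.45 and were not called.

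Lig1, which seals Okazaki fragments, was the 1 of 7 called in its role. Its levels were 8.82, 8.50 and 7.62 in wildtype placebo, 8.34, 8.99 and 8.41 in wildtype estradiol, 9.14, 7.78 and 9.41 in knockout placebo and 7.68, 8.91 and 8.01 in knockout estradiol mice. Every group spanned at least a lymphocyte-rich and a lymphocyte-poor mouse, and the groups overlapped. It differed by 0.96 ± 0.18 (SE, adjusted p = 0.0203) and stayed called in 8 of 12 fits with 1 array left out. Pcna, the sliding clamp, stood at 0.38, its loader subunits Rfc3, Rfc4 and Rfc5 at 0.67, 0.37 and 0.85, the flap nuclease Fen1 at 0.32 and the single-strand binding subunit Rpa2 at 0.38, with none called.

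Uhrf1, which carries DNA methylation over to the new strand with Dnmt1, had levels of 7.40, 7.24 and 5.52 in wildtype placebo, 6.61, 7.65 and 6.80 in wildtype estradiol, 7.92, 5.89 and 8.14 in knockout placebo and 6.14, 7.37 and 6.63 in knockout estradiol mice. Its difference with the covariate was 1.29 ± 0.20 (SE, adjusted p = 0.00866); its second, dimmer probe set gave -0.02, and the call ended without wildtype placebo mouse 3. Dnmt1 stood at 0.39, the histone chaperone subunit Chaf1b at 0.78 and the histone mRNA binding protein Slbp at 0.27, none called.

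In E2F and cyclin E control, E2f8, a repressor of the E2F family that is itself made in S phase, was called. Its levels were 6.18, 6.05 and 5.04 in wildtype placebo, 5.93, 6.36 and 5.87 in wildtype estradiol, 6.82, 5.51 and 7.27 in knockout placebo and 5.37, 6.19 and 6.07 in knockout estradiol mice, and it differed by 0.94 ± 0.19 (SE, adjusted p = 0.0258). Its dimmer probe set gave 0.01, the mean of both ended the call, and 7 of 12 fits with 1 array left out kept it. The activator E2f1 had levels of 6.54, 6.48 and 6.97 in wildtype placebo, 6.87, 6.96 and 6.70 in wildtype estradiol, 6.70, 7.01 and 6.66 in knockout placebo and 6.67, 6.73 and 6.47 in knockout estradiol mice and differed by 0.07 ± 0.16, with no call. E2f2, at 8.19, 7.66 and 5.94 in wildtype placebo, 6.47, 7.36 and 7.01 in wildtype estradiol, 8.35, 6.19 and 8.63 in knockout placebo and 6.03, 7.41 and 7.95 in knockout estradiol mice, followed the lymphocyte genes (slope 0.59) and its difference of 0.75 ± 0.36 was not called. The cyclins E, Ccne1 and Ccne2, stood at -0.05 and -0.29, and Ccne2 lay under the lower quartile on 8 arrays.

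Of the genes acting in repair at forks, 2 of 3 were called. Exo1, an exonuclease of mismatch repair, had log2 levels of 5.26, 4.81 and 3.78 in wildtype placebo, 4.65, 5.58 and 4.56 in wildtype estradiol, 5.47, 4.19 and 5.92 in knockout placebo and 3.84, 4.99 and 4.45 in knockout estradiol mice, 3 of them under the lower quartile of their array. It differed by 1.10 ± 0.13 (SE, adjusted p = 0.00268), called without any 1 array; its other 2 probe sets, dimmer, gave -0.01 and 0.10. Dtl, the adaptor by which Cdt1 is destroyed in S phase, had levels of 7.05, 6.97 and 5.94 in wildtype placebo, 6.70, 7.36 and 7.03 in wildtype estradiol, 7.39, 6.02 and 7.71 in knockout placebo and 6.35, 7.15 and 6.72 in knockout estradiol mice and differed by 1.01 ± 0.19 (SE, adjusted p = 0.0199). Its 5 dimmer probe sets ranged from -0.17 to 0.28. The call ended with the mean of all probe sets and without wildtype placebo mouse 1 or 3. Brca1, at 7.18, 6.75 and 4.43 in wildtype placebo, 6.05, 6.87 and 6.12 in wildtype estradiol, 7.57, 4.36 and 7.63 in knockout placebo and 5.34, 6.93 and 5.82 in knockout estradiol mice, had the second largest difference of all members, 1.57 ± 0.39, but with an adjusted p of 0.0584 it was not called.

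**Figure D3:**
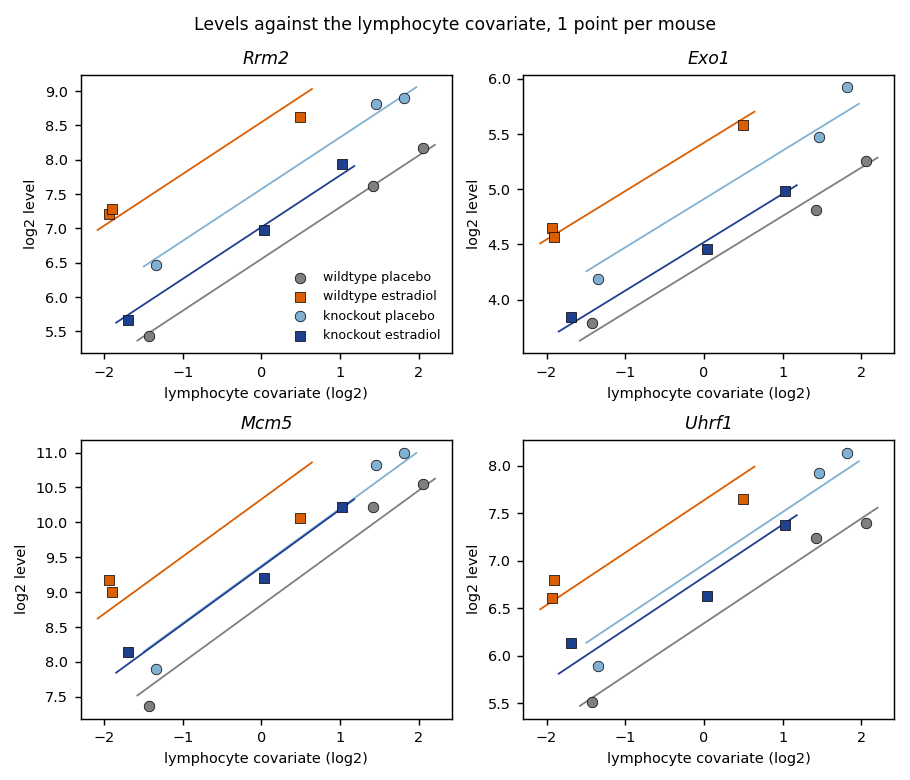
Log2 level of Rrm2, Exo1, Mcm5 and Uhrf1 (y) against the lymphocyte covariate (x, log2), 1 point per mouse, coloured by group, with the parallel lines of the limma fit. The line of wildtype estradiol lies above that of wildtype placebo by 1.99, 1.10, 1.52 and 1.29, and the line of knockout estradiol differs from that of knockout placebo by -0.55, -0.39, -0.01 and -0.13.

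Luminal epithelial markers moved with the same contrast: the mean of their centred log2 levels was 0.02, -0.21 and 0.50 in wildtype placebo mice, 1.30, 2.79 and 1.80 in wildtype estradiol mice and at most 0.06 in all 6 knockout mice, though 0 of the 10 genes were called without the lymphocyte covariate. Macrophage markers averaged -0.57 in wildtype placebo and 1.05 in wildtype estradiol mice, and basal epithelial markers -0.59 and 1.15, with 2 of 7 and 3 of 8 genes called in that fit, all higher. Fibroblast markers averaged -0.50 ± 0.55 (SD, n = 3) and 0.70 ± 0.17, the 3 estradiol mice lay above the 3 placebo mice, and 1 of 6 was called, Pdgfra (1.72, limma adjusted p = 0.00486). Germinal centre markers, a sign of dividing B cells, averaged 0.11 and -0.21, and 1 of 5 measured was called, S1pr2, higher on estradiol (0.87, limma adjusted p = 0.0287). With the luminal score as a second covariate, added after seeing the data, the members' median was 0.65 and only Rrm2 remained called (2.30, adjusted p = 0.00418). With the Gapdh 3′ minus 5′ difference in that place, 14 members were called. The part of these cell types in the difference was not tested further.

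In knockout glands, estradiol left no member called in either fit. Without the covariate, 43 of 45 members were below 0, as were 8923 of all 18193 genes, and the members' median was -0.33. Limma called 0 members and 0.0989% of all genes. Of the members 1 (2.2%) had an unadjusted p under 0.05, against 8.3% of all genes. The 3 estradiol mice lay all below the 3 placebo mice for 3 members, Orc1, Tyms and Ccne2 (5.09% of all genes), and all above for 0 (8.37%). With the covariate the median was -0.09, and 13 of 45 members were above 0, as were 9150 of all 18193 genes. Of the members 4 (8.9%) had an unadjusted p under 0.05, against 12.3% of all genes. Limma called 0 members and 0.269% of all genes. With the covariate on the linear scale the median was 0.03. Rrm2 stood at -0.55 ± 0.14 (adjusted p = 0.178), Exo1 at -0.39 ± 0.12 (adjusted p = 0.239) and Ccne2 at -0.47 ± 0.18 (adjusted p = 0.34). Mcm2, Mcm4 and Mcm5 stood at 0.01, -0.01 and -0.01. Luminal markers averaged -1.02 in knockout placebo and -1.04 in knockout estradiol mice.

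**Figure D4:**
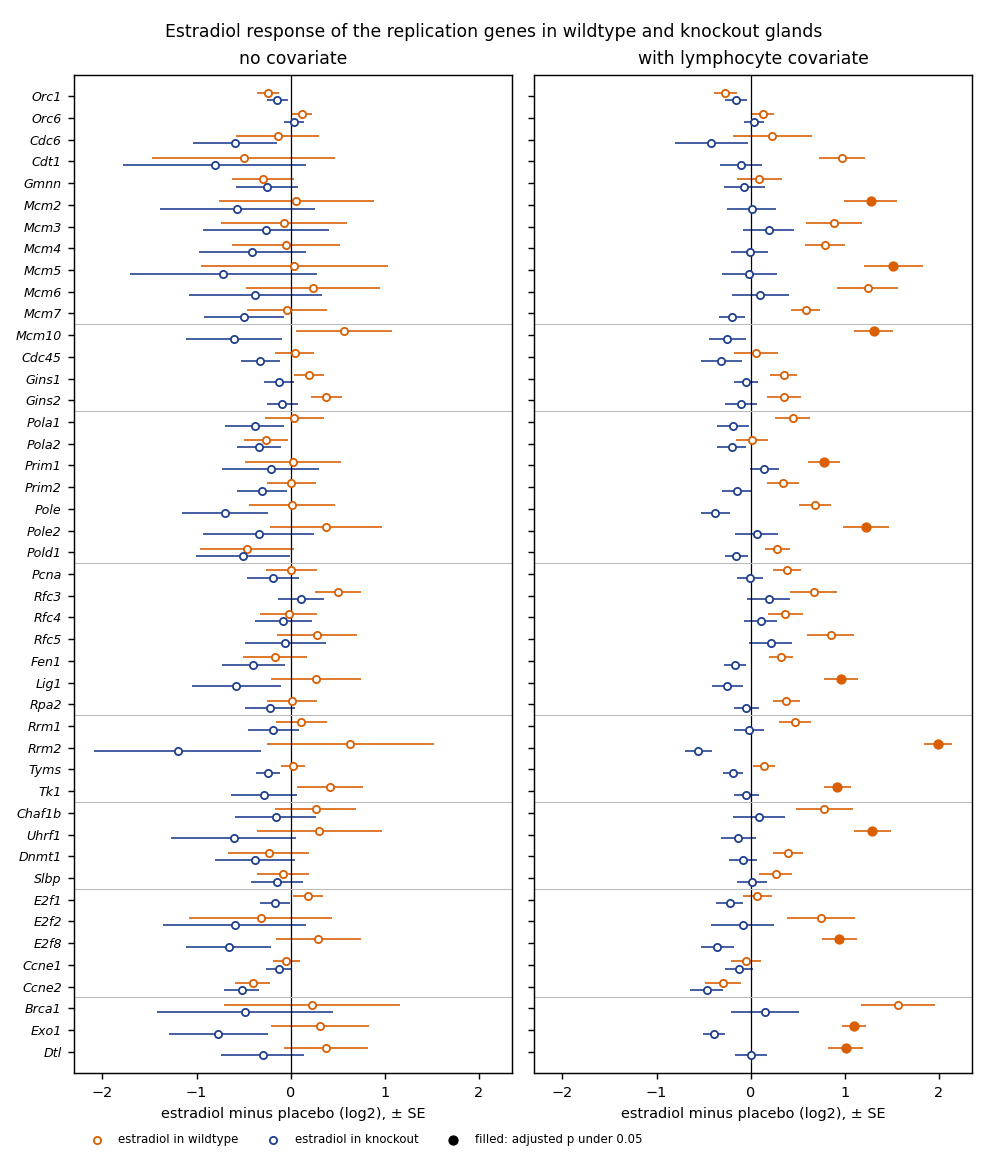
Estradiol minus placebo (log2, ± SE) for each member in wildtype (orange) and knockout (blue) glands, without the covariate (left) and with it (right); filled points passed an adjusted p of 0.05. With the covariate the SEs shrink for most members, but those of Orc1, Orc6, Cdc45, Gins2, Rfc3, Ccne1 and Ccne2 in wildtype are larger. On the right, 12 wildtype points and 0 knockout points are filled.

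The genotypes on placebo ask whether the loss of cyclin D1 matters without the hormone. No member was called and 0% of all genes were, in both fits. Without the covariate 44 of 45 members were above 0 in the knockout, as were 9875 of all 18193 genes. The members' median was 0.24, against 0.02 for all genes, and it was -0.02 without wildtype placebo mouse 3. Of the members 3 (6.7%) had an unadjusted p under 0.05, against 2% of all genes. The 3 knockout mice lay all above the 3 wildtype mice for 4 members (4.9% of all genes), Orc6, Gins1, Gins2 and Ccne1, and all below for 0 (1.81%). With the covariate the median was 0.25, and 13 members had an unadjusted p under 0.05 (28.9% of members, 4.5% of all genes). Rrm2 had the largest difference, 1.02 ± 0.14, followed by Mcm10 at 0.86 ± 0.19 and E2f8 at 0.79 ± 0.17, with adjusted p of 0.434, 0.933 and 0.887. Without wildtype estradiol mouse 2, which enters only through the shared slope and spread, Rrm2 was called (1.02, adjusted p = 0.0261).

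On estradiol, the knockout was lower than wildtype for 5 members with the covariate. These were Rrm2 (-1.53 ± 0.14 SE, adjusted p = 0.00252), Exo1 (-0.90 ± 0.12 SE, adjusted p = 0.00619), Uhrf1 (-0.81 ± 0.19 SE, adjusted p = 0.0388), Lig1 (-0.73 ± 0.17 SE, adjusted p = 0.0388) and Pole (-0.67 ± 0.16 SE, adjusted p = 0.039). Of all genes 5.01% were called, 4.11% lower, and the members' median was -0.39 against 0.03. Pole2 missed the threshold at -0.92 ± 0.23 (adjusted p = 0.0502). Without the covariate 0 members were called (1.12% of all genes), 0 had an unadjusted p under 0.05 (13.5% of all genes), and the median was -0.12. For 0 members did the 3 knockout mice lie all above or all below the 3 wildtype mice (10.5% and 11.8% of all genes). Rrm2 and Exo1 stayed called without any 1 array; Pole, Lig1 and Uhrf1 did not, and the count was 2 without any 1 of wildtype placebo mice 1 and 2, wildtype estradiol mice 1 and 3, knockout placebo mice 1 and 3 and knockout estradiol mice 1 and 3. It was 15 without wildtype estradiol mouse 2. The dimmer probe sets of Exo1 gave 0.13 and -0.11 and that of Uhrf1 gave 0.03, and the mean of all probe sets ended both calls. Those of Rrm2 gave -0.43 and -1.52. With luminal markers as a second covariate 0 members were called, and Rrm2 stood at -1.16 (adjusted p = 0.111). The Gapdh 3′ minus 5′ difference, a measure of RNA quality, separated the same groups, at 2.55, 2.41 and 3.09 in wildtype and 3.22, 3.56 and 3.47 in knockout estradiol mice. With it as a second covariate Rrm2 stayed called (-1.69, adjusted p = 0.0284), and Exo1 (-0.82, adjusted p = 0.0785), Uhrf1 (-0.94, adjusted p = 0.121), Lig1 (-0.72, adjusted p = 0.168) and Pole (-0.51, adjusted p = 0.224) were not called.

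The interaction asks most directly whether the estradiol response of these genes differs with cyclin D1, as the response in knockout minus that in wildtype mice. With the covariate 44 of 45 members were below 0, as were 9064 of all 18193 genes. The members' median was -0.63, against 0.0016 for all genes. Of the members 24 (53.3%) had an unadjusted p under 0.05, as did 14% of all genes. After adjustment over all genes 2 were called, where 0.253% of all genes were: Rrm2 at -2.55 ± 0.20 (SE, adjusted p = 0.00292) and Exo1 at -1.49 ± 0.17 (SE, adjusted p = 0.0111). These share their wildtype and knockout arrays with the comparisons above and are no separate evidence. Next came Mcm10 at -1.56 ± 0.27 (adjusted p = 0.0547), Uhrf1 at -1.43 ± 0.26 and E2f8 at -1.29 ± 0.24 (adjusted p = 0.0585 each) and Lig1 at -1.21 ± 0.23 (adjusted p = 0.0645), none of them called. By role the medians were -0.79 in licensing, -0.43 in firing, -0.63 for the polymerases, -0.48 for clamp and strand joining, -0.72 in nucleotide supply, -0.58 in chromatin copying, -0.29 in E2F and cyclin E control and -1.42 in repair at forks. Orc1 alone stood above 0, at 0.11.

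Without the covariate, the interaction had 0 members called (0.011% of all genes) and 0 with an unadjusted p under 0.05 (6.4% of all genes). The median was -0.35, with 43 of 45 members below 0, as were 9080 of all 18193 genes. Rrm2 then stood at -1.84 ± 1.25 and Exo1 at -1.08 ± 0.74, with SEs several times those above. With it, Rrm2 was called without any 1 array (-2.77 to -2.47) and Exo1 without any 1 but knockout placebo mouse 1 (adjusted p = 0.0526). The count was 11 without wildtype estradiol mouse 2, 5 without knockout placebo mouse 2 and 5 without both lymphocyte-poor placebo mice, when Mcm10, Uhrf1 and E2f8 joined the 2. Rrm2's other probe sets gave -0.999 and -2.12, while those of Exo1 gave 0.11 and -0.17. With luminal markers as a second covariate Rrm2 alone was called, at -2.85 (adjusted p = 0.00608).

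Other genes of the pathway were read from 2 lists. Of 44 further replication genes 41 were measured; with the covariate 2 of 41 were called in wildtype on estradiol, Top2a, which untangles copied DNA, at 1.85 (adjusted p = 0.0144) and the chromatin factor Cdca7 at 1.45 (adjusted p = 0.00453). Their median was 0.28, 25 of 41 had a called slope on the lymphocyte covariate, and Cdca7 was called lower in the knockout on estradiol (-0.99, adjusted p = 0.0158). In the interaction limma called 0 of 41, with a median of -0.30, and 12 (29.3%) had an unadjusted p under 0.05, against 14% of all genes. Cdca7 (-1.43), Top2a (-2.08) and the checkpoint mediator Clspn (-1.03) had the smallest p (limma adjusted p = 0.054, 0.0685 and 0.152).

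Of 26 genes of G1 control, all measured, 4 were called higher in wildtype on estradiol with the covariate. These were Ccnd1 itself (1.41, adjusted p = 0.0451), its kinase partner Cdk4 (0.79, adjusted p = 0.0352), cyclin A2, Ccna2 (1.31, adjusted p = 0.0179), and the kinase inhibitor Cdkn2b (0.53, adjusted p = 0.0422). Cdkn2b was also called without the covariate (0.55, adjusted p = 0.0343), at 7.35, 7.20 and 7.46 in wildtype placebo and 7.88, 7.85 and 7.93 in wildtype estradiol mice. Cdk4, read by a probe set of the _x_at kind, stood at 9.91, 9.72 and 9.64 against 10.35, 10.37 and 10.44 in the same mice. In the knockout on estradiol Ccna2 was called lower (-0.95, adjusted p = 0.0403), as was the deleted gene Ccnd1 (-2.71, adjusted p = 0.00307; -2.62 without the covariate). In the interaction limma called 0 of 26, and 5 (19.2%) had an unadjusted p under 0.05, against 14% of all genes. Ccna2 (-1.59), E2f3 (-0.73) and E2f7 (-1.28) had the smallest p (limma adjusted p = 0.0645, 0.137 and 0.162). In knockout glands limma called 0 of either list on estradiol. With the covariate 4 of 41 (9.8%) and 7 of 26 (26.9%) had an unadjusted p under 0.05, against 12.3% of all genes. On the covariate 7 of 26 had a called slope, 5 higher and 2 lower, the latter Rb1 and Cdkn2a.

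Cdk1, the kinase of entry into mitosis, had log2 levels of 7.47, 7.03 and 6.14 in wildtype placebo, 7.36, 8.07 and 7.62 in wildtype estradiol, 8.15, 6.61 and 8.40 in knockout placebo and 6.17, 7.64 and 6.82 in knockout estradiol mice. With the covariate it differed in wildtype by 1.57 ± 0.20 on estradiol (SE, adjusted p = 0.00417). The genotype difference on estradiol was -1.19 (adjusted p = 0.0101) and the interaction -2.05 (adjusted p = 0.0187). Cdk1 thus passed in the same 3 comparisons as Rrm2 and Exo1, but its calls were not followed under the alternatives. Mki67, the marker of cycling cells, had a slope of 0.82 on the covariate (adjusted p = 0.00133). On estradiol, wildtype mice differed by 1.18 ± 0.52 (adjusted p = 0.244) and its interaction was -1.54 ± 0.67 (adjusted p = 0.341), neither called.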

How the data were processed

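Total RNA of 12 mammary glands, 1 per mouse, was measured on single-colour Affymetrix arrays of 45101 probe sets. The deposited table holds log2 intensities, already normalised by the authors across arrays with RMA, which corrects background, equalises distributions and summarises probes. RMA and limma 2.9.16 are named per the submitters' processing notes, with no genome build. Of the probe sets, 34945 are linked to 1 gene by the platform table, and the one of highest mean level stood for the gene.

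All 18193 genes were fitted with limma 3.58.1 in R 4.3.3 as 4 group means with eBayes, without a covariate (8 residual and 2.15 prior degrees of freedom) and with the mean of centred Cd79a and Cd3e as the lymphocyte covariate (7 and 2.92). In each of 5 comparisons two-sided p-values were corrected over all genes (Benjamini-Hochberg), and genes below 0.05 after correction count as called. A positive difference is higher on estradiol, or higher in the knockout. The fit was also run on simulated data, but no outcome is given here, so nothing is concluded from that run. Equal slopes across groups and a covariate unchanged by estradiol remain untested. The 3 mice of a group are separate animals per the labels, and their number limits the precision.

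The members and lists were chosen with earlier results of these data known. The rule for named genes takes all members by role, array values for every called member and for the members of each role with the smallest interaction p and the largest slope, and, from 2 further lists, every called gene and the 3 with the smallest interaction p; Mki67 and Cdk1 were added. Ccnb1 is not analysed here. No sign that replicate numbers pair the mice was seen. After removal of group means, same-numbered mice correlated at -0.74 to 0.66 and other-numbered mice at -0.76 to 0.70. Whether same-numbered mice share a batch cannot be told from these values. Alternatives covered probe set choice, scaling, dim genes, the covariate, array weights, a replicate block, the threshold and leaving out arrays; extra covariates beside the lymphocyte one and the omission of the 2 lymphocyte-poor placebo arrays were chosen after seeing the data. Promoters come from RefSeq. Figures were drawn with matplotlib 3.10.9.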

Additional observations from a re-analysis of the deposited data

Results flagged for a closer look

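The estradiol response of Rrm2 differed between the genotypes by a test of the difference itself. Knockout minus wildtype was -2.55 log2 units with the lymphocyte covariate (limma, adjusted p = 0.00292); the response was 1.99 in wildtype and -0.55 in knockout glands. All of the gene's probe sets had the same sign.

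The response of Exo1 also differed by that test, at -1.49 (adjusted p = 0.0111), from 1.10 in wildtype and -0.39 in knockout glands. Its 2 dimmer probe sets gave 0.11 and -0.17, and 3 arrays of the brighter one lay under the lower quartile. Neither gene was called without the covariate.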

How the results depend on the processing

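Single called members, and no other called genes, were followed, and only in fits that kept a lymphocyte covariate. Of their 490 values under these alternatives, 0 turned in sign and 136 lost their call. Medians without the covariate turned in sign in wildtype on estradiol (-0.08 with array weights, -0.21 without wildtype placebo 3, with or without knockout placebo 2, -0.06 without wildtype estradiol 2), for the knockout on placebo (-0.0013 with the RNA quality covariate, -0.02 without wildtype placebo 3) and for the knockout on estradiol (0.0051 without wildtype estradiol 2, 0.02 without knockout estradiol 1); with the covariate, only that in knockout on estradiol did (0.03 with a linear-scale covariate). Rrm2 kept its calls in wildtype on estradiol and in the interaction under all alternatives with a lymphocyte covariate. In the main fit without the covariate it had neither call. Of 19 single-gene calls, 6 held whichever array was left out. The causes of the changes below were not tested.

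In wildtype on estradiol, the count of 0 without the covariate was 5 with array weights, whose fit stopped before convergence, 1 without both lymphocyte-poor placebo arrays (Ccne2, -0.61), and 0 to 1 when each array was left out in turn. With the covariate, 12 became 19 at an adjusted p under 0.10, 1 with the luminal score added, 6 with the muscle score added, 2 without both lymphocyte-poor placebo arrays and 4 to 18 on leaving out each array. In knockout on estradiol, 0 became 1 with B and T cell lists as the covariate (Rrm2, -0.73), and the median was -0.36 without both lymphocyte-poor placebo arrays and -0.27 to -0.027 on leaving out each.

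For the knockout on estradiol, 5 became 3 under quantile scaling or a linear-scale covariate, 15 at the looser threshold, 2 with Cd79a alone, 13 with Cd3e alone, 1 with the RNA quality difference added, 0 with the luminal score added and 2 to 15 on leaving out each array. The median without the lymphocyte covariate was -0.63 with the RNA quality covariate. For the knockout on placebo the count was 0 to 1 and the median 0.21 to 0.43 on leaving out each array. In the interaction, 2 became 1 with the mean of all probe sets, 1 without the dimmest 40% of genes (which removes Exo1 and leaves 39 members), 8 at the looser threshold, 7 with Cd3e alone, 1 with the luminal score added, 5 without both lymphocyte-poor placebo arrays and 1 to 11 on leaving out each array, with a median of -0.80 to -0.46. The 34 called slopes became 16 without both lymphocyte-poor placebo arrays and 29 to 35 on leaving out each.

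With the replicate number as a replicate block, the count was 2 in place of 5 for the knockout on estradiol, 13 in place of 12 in wildtype on estradiol and 2 in the interaction, and 0 remained 0 elsewhere. Values under the lower quartile (Tyms, Ccne2, part of Exo1) limit what the arrays can show.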
